A study of Mus musculus with 12 samples.

Results

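Collagen chain genes were followed in the RNA of mouse lung tumours and of the normal lung beside them. They were taken as the protein-coding genes whose GENCODE symbol is Col, a number, a and a number, and 44 of the 78298 gene identifiers in the count table met that rule. By the type of collagen the chain builds, 11 were fibrillar, 6 belonged to the type IV collagens of basement membranes, 9 were FACIT collagens (fibril-associated collagens with interrupted triple helices) and 18 were of other types. The 12 libraries came from LLC tumours and normal adjacent lung dissected from mice given house dust mite (HDM) or VEH, an abbreviation that the labels do not spell out. Each of the 4 combinations of tissue and treatment had 3 libraries. The submitters call the exposure chronic and the adjacent lung matched. LLC is not spelled out in the labels either, and they name no strain, age, dose or number of exposures for any group. The replicates are numbered in the sample titles, and nothing in the labels says whether they came from separate animals, so the p-values measure the spread between these libraries.

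Collagens are proteins of the extracellular matrix built from 3 chains wound into a triple helix. Fibrillar chains (types I, III and V among them) form the rope-like fibrils that give lung its tensile strength, and are made mainly by fibroblasts. Type IV chains form the sheet-like network of basement membranes under epithelium and endothelium, where the Col4a1 and Col4a2 chains are nearly ubiquitous and the Col4a3, Col4a4 and Col4a5 chains form a network found in few tissues, alveolar basement membrane among them. FACIT collagens sit on fibril surfaces, and the other types include the beaded filaments of type VI, the anchoring fibrils of type VII and the transmembrane collagens.

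Total counts per library ranged from 20608682 to 32765364. Collagen genes took 0.212% to 0.415% of the counts in normal lung and 0.548% to 1.71% in tumours. Of the 44 genes, 35 passed the filter on low counts and were tested. The 9 others (Col2a1, Col6a6, Col9a1, Col9a2, Col10a1, Col11a1, Col19a1, Col22a1 and Col25a1) had at most 36 counts in any 1 library, and Col9a1, a chain of cartilage type IX collagen, had 0 in all 12. A count of 0 allows a level of up to 0.0916 to 0.146 CPM (3 counts), depending on the library, for counting error only. This takes each count as independent, and the bound would be higher if both mates of a read pair were counted. Markers of lung epithelium were found in both kinds of piece. The summed level of 6 alveolar type 1 cell markers was 3095 to 5740.1 CPM in normal VEH and 3844 to 4723 in normal HDM, against 282 to 1133 in tumour VEH and 59.9 to 357 in tumour HDM. Tumour VEH replicate 2 had the highest alveolar and airway marker levels of the tumours, and normal VEH replicate 2 the highest mesothelial and lowest smooth muscle marker levels of the normal libraries. In the names of the libraries, a prefix joins each tumour to a normal library, and for 4 of the 12 libraries the joined pair carries different treatment labels (tumour HDM replicate 2 is joined to normal VEH replicate 2, tumour VEH replicate 3 to normal HDM replicate 3). Groups follow the labels throughout. Tissue calls by edgeR and the number of treatment calls are also given without these libraries. Other values include them.

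The tissue comparison asked how the collagen genes differed between tumour and adjacent lung under each treatment. Under VEH, 21 of the 35 tested genes changed, 9 higher and 12 lower in tumours, by edgeR's quasi-likelihood test at an adjusted p below 0.05. Over all 22190 genes tested, 38.9% were called, 18.2% higher and 20.6% lower. Under HDM, 22 of 35 changed, 10 higher and 12 lower, where 51.9% of all genes were called, 23.0% higher and 28.9% lower. The share of collagen genes called was 60.0% under VEH and 62.9% under HDM, and the background was high in both. The median log2 change over the 35 genes was -0.81 under VEH and -0.62 under HDM, beside -0.11 and -0.08 over all genes.

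Genes called higher in both treatments were Col3a1, Col5a1, Col5a3, Col6a1, Col6a3, Col7a1, Col8a1, Col16a1 and Col18a1. Those called lower in both were Col1a2, Col4a2, Col4a3, Col4a4, Col4a5, Col4a6, Col5a2, Col13a1, Col14a1 and Col27a1. These 9 and 10 genes made up most of each set of calls, and 11 genes were called in neither. None was called in opposite directions. The libraries of the compared groups did not overlap for 24 of the 35 under VEH (10 higher, 14 lower) and for 24 under HDM (10 higher, 14 lower), against 52.4% and 63.1% of all genes. In bulk tissue, fewer cells of a type and less RNA per cell cannot be told apart. Leaving out both VEH libraries numbered 2, a choice made after seeing the data, gave 19 calls of 36 tested under VEH and 23 of 36 under HDM, with 41.9% and 52.7% of all genes called. Without the 4 libraries of conflicting prefixes the counts were 11 and 13 of 36, with 25% and 37.9% of all genes called. Without single libraries the VEH count was 13 (normal VEH replicate 3), 12 (tumour VEH replicate 1) and 12 (tumour VEH replicate 3), with 26.3%, 24.7% and 25.7% of all genes called.

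Without the libraries of conflicting prefixes, Col1a2, Col3a1, Col4a6, Col5a1, Col5a3, Col6a1, Col8a1, Col16a1, Col18a1 and Col27a1 kept their VEH call by edgeR, and Col24a1 gained one (4.17). The VEH calls lost were those of Col4a2 (-0.54), Col4a3 (-2.45), Col4a4 (-2.39), Col4a5 (-3.14), Col5a2 (-1.42), Col6a3 (2.34), Col7a1 (3.20), Col13a1 (-3.72), Col14a1 (-1.58), Col20a1 (-3.60) and Col23a1 (-1.31), with the log2 change in parentheses. The HDM calls lost were those of Col1a2 (-1.60), Col4a1 (-0.86), Col4a3 (-4.91), Col4a4 (-4.18), Col5a2 (-1.0), Col6a1 (1.32), Col8a2 (-5.31), Col14a1 (-0.64) and Col27a1 (-1.52). This setting leaves 2 libraries in each group. The HDM calls of Col3a1, Col4a2, Col4a5, Col4a6, Col5a1, Col5a3, Col6a3, Col7a1, Col8a1, Col13a1, Col16a1, Col18a1 and Col24a1 held.

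**Figure D1:**
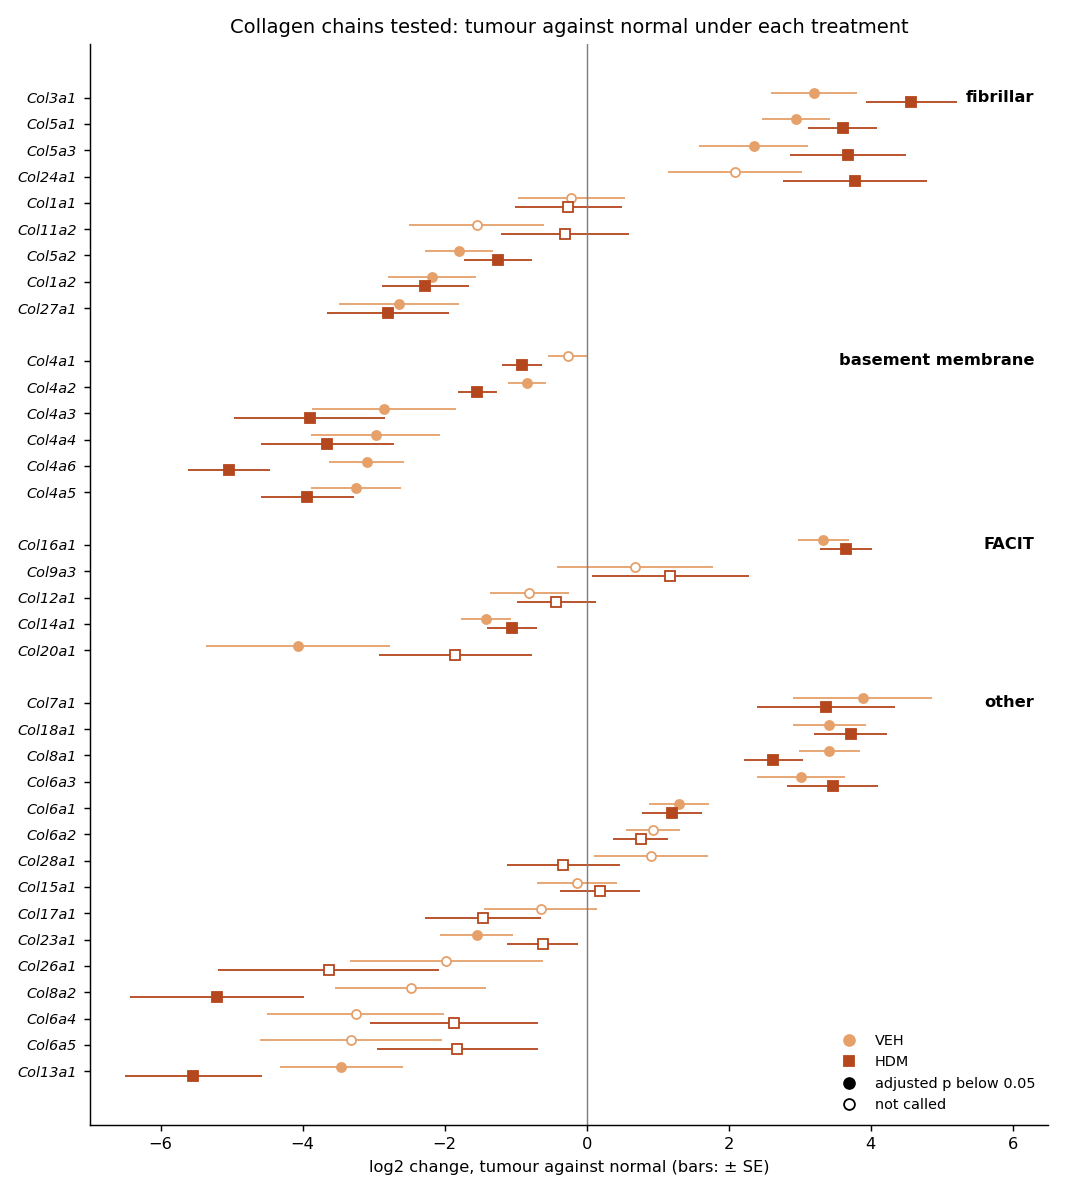
Log2 change between tumour and normal lung for the 35 collagen genes tested, by type, with the standard error as a bar; circles are VEH, squares HDM, and filled symbols passed an adjusted p below 0.05. Fibrillar and other types hold genes on both sides of 0, while the called type IV genes all lie below 0.

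Among the fibrillar genes, Col3a1, Col5a1 and Col5a3 rose in tumours under both treatments, and Col1a2, Col5a2 and Col27a1 fell. Col1a1, the main chain of type I collagen, was not called. Of 9 tested fibrillar genes, 3 rose and 3 fell under VEH, and 4 rose and 3 fell under HDM. Over all genes, 18.2% rose and 20.6% fell under VEH, and 23.0% rose and 28.9% fell under HDM. The type V partners Col5a1 and Col5a2 moved in opposite directions. The 250 bases before the start of 3 genes are shown. Their calls under both treatments held in every alternative tried, as did those of Col5a1, Col16a1 and Col18a1, which are not shown. The 3 are Col3a1, the collagen gene of highest level in tumours, Col8a1, which rose with it, and Col4a6, which fell. Col4a6 lies next to Col4a5 in a stretch from which the pair is read outwards. The bases shown are RefSeq sequences, 5′ to 3′, placed on GRCm39 by exact match, and share no base with an annotated exon. Capitals mark 3 promoter motifs on either strand. The motif of the box bound by the general factor TBP is TATAAA. The box bound by the factor NF-Y is searched as CCAAT. The box bound by Sp1 and its relatives is searched as GGGCGG.
Col3a1, chr1:45350448-45350697, plus strand: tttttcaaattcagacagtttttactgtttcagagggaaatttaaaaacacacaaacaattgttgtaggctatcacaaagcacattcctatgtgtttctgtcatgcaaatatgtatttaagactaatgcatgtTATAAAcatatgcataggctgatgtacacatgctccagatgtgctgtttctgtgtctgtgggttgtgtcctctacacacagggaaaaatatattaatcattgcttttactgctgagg
Col8a1, chr16:57575101-57575350, minus strand: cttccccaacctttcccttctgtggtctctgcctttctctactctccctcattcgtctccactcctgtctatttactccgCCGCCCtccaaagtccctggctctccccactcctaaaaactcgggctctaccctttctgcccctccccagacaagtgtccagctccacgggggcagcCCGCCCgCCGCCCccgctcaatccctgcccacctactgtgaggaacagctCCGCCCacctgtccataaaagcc
Col4a6, chrX:140257073-140257322, minus strand: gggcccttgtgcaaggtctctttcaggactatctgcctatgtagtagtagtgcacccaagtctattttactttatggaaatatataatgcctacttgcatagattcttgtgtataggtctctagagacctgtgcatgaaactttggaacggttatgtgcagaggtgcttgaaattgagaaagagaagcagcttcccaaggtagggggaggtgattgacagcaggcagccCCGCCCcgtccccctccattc
Col3a1 holds 1 TATAAA and neither of the other motifs. Col8a1 holds 4 Sp1 motifs and Col4a6 holds 1, all on the opposite strand. RefSeq windows from 250 bases before to 50 after the start were matched for 35 of the 44 collagen genes, of which 5 held TATAAA, 13 CCAAT and 22 GGGCGG, beside 13.6%, 37.4% and 35.7% of all 32851 windows. A collagen gene was counted if any of its windows matched, while the shares are of single windows, so these are unlike units. A match describes these letters and is not a known site.

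Col3a1 (chr1:45350698-45395840, plus strand) encodes the single chain of type III collagen, which shares fibrils with type I in distensible tissues such as lung and vessel wall. Its level, in CPM per kb (counts scaled for library depth and gene length, replicates 1, 2 and 3 in that order here and below), was 50.1, 144 and 29.3 in normal VEH, 39.8, 29.5 and 49.7 in normal HDM, 814, 291 and 951 in tumour VEH, and 1047, 987 and 791 in tumour HDM. Every tumour library lay above every normal library. Tumour VEH replicate 2 was the lowest of the tumours and normal VEH replicate 2 the highest of the normals. The log2 change was 3.20 ± 0.60 (SE, edgeR adjusted p = 0.00301) under VEH and 4.57 ± 0.64 (SE, edgeR adjusted p = 0.000394) under HDM. Under VEH it was 4.11 without normal VEH replicate 2.

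Type I collagen is built from Col1a1 chains and a Col1a2 chain, more of the first than of the second. Levels of Col1a1 (chr11:94827050-94843868, plus strand) were 79.6, 22.8 and 13.6 in normal VEH, 36.2, 28.1 and 64.7 in normal HDM, 44.6, 16.9 and 38 in tumour VEH, and 31.1, 9.87 and 66.6 in tumour HDM, in CPM per kb. The groups overlapped throughout, and replicates of 1 group differed by up to several fold. Its log2 change was -0.22 ± 0.75 (SE, edgeR adjusted p = 0.83) under VEH and -0.26 ± 0.75 (SE, edgeR adjusted p = 0.79) under HDM. The sign was not stable: it was 0.87 without normal VEH replicate 1 and 0.10 without tumour VEH replicate 2, and under HDM 0.24 without normal HDM replicate 3 and 0.29 without tumour HDM replicate 2, none of which passed the test.

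For Col1a2 (chr6:4504814-4541555, plus strand) the levels were 47.4, 35.1 and 12 in normal VEH, 27.9, 20.5 and 37.7 in normal HDM, 4.02, 4.32 and 12.5 in tumour VEH, and 8.87, 2.94 and 6.02 in tumour HDM, in CPM per kb. Tumours were lower in both comparisons, except that tumour VEH replicate 3 lay above normal VEH replicate 3. The log2 change was -2.18 ± 0.61 (SE, edgeR adjusted p = 0.0188) under VEH and -2.27 ± 0.62 (SE, edgeR adjusted p = 0.011) under HDM. The VEH call was lost without normal VEH replicate 1 (-1.76), tumour VEH replicate 1 (-1.80) or tumour VEH replicate 2 (-1.93), and the value was -2.83 without tumour VEH replicate 3. It was also lost without both VEH libraries numbered 2 (-1.84) or without the low-count filter (-2.13). Without tumour HDM replicate 2 (-1.83) the HDM call was lost. An opposite-strand gene, Gm66266, shares 1308 exon bases with Col1a2, and whether counting used the strand is not given in the sources used here.

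Type V chains start fibrils and limit their width, and most type V molecules hold Col5a1 chains with a Col5a2 chain. Col5a1 (chr2:27776397-27929526, plus strand) had levels of 7.4, 6.83 and 2.69 in normal VEH, 3.71, 3.31 and 7.27 in normal HDM, 49.8, 24.5 and 56.1 in tumour VEH, and 75.6, 50.5 and 47.4 in tumour HDM, in CPM per kb. All 6 tumour libraries exceeded all 6 normal ones, with log2 changes of 2.94 ± 0.48 (SE, edgeR adjusted p = 0.00152) under VEH and 3.60 ± 0.49 (SE, edgeR adjusted p = 0.000342) under HDM. The levels of Col5a2 (chr1:45412554-45542442, minus strand) ran from 4.32 to 13.9 CPM per kb in normal libraries and from 1.29 to 3.85 in tumours. Here all 6 tumour libraries lay below all 6 normal ones, with log2 changes of -1.80 ± 0.48 (SE, edgeR adjusted p = 0.0155) under VEH and -1.25 ± 0.48 (SE, edgeR adjusted p = 0.0479) under HDM. The VEH call was lost without tumour VEH replicate 1 (-1.68), without both VEH libraries numbered 2 (-0.85) or without the libraries of conflicting prefixes (-1.42), and was -1.13 without normal VEH replicate 2. Of 12 single libraries left out, 8 ended the HDM call: normal VEH replicate 1 (-1.25), each normal HDM replicate (-1.16, -1.35 and -1.13), tumour VEH replicates 1 and 3 (-1.13 and -1.13) and tumour HDM replicates 2 and 3 (-1.0 and -0.91). Col3a1 and Col5a2 are neighbours on chromosome 1, tail to tail with 16713 bases between them, and moved in opposite directions.

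Col5a3 (chr9:20681337-20726418, minus strand), a further type V chain, measured 1.15, 3.15 and 0.643 in normal VEH, 0.614, 0.366 and 1.91 in normal HDM, 11.9, 3.13 and 10.3 in tumour VEH, and 19.1, 9.52 and 8.54 in tumour HDM, in CPM per kb. Tumour VEH replicate 2 and normal VEH replicate 2 met at the border of the VEH groups, and the HDM groups were apart. The rise was 2.35 ± 0.77 (SE, edgeR adjusted p = 0.0345) under VEH and 3.68 ± 0.82 (SE, edgeR adjusted p = 0.00415) under HDM. Under VEH the call was lost without normal VEH replicate 1 (2.15), normal VEH replicate 3 (1.97), tumour VEH replicate 1 (2.12) or tumour VEH replicate 3 (2.26) or with the prefix as a block (2.24), and the values were 3.24 without normal VEH replicate 2 and, under HDM, 4.77 without normal HDM replicate 3.

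Col24a1 (chr3:144998233-145257766, plus strand), a fibrillar chain known from developing bone and eye, was low everywhere, at 2, 52 and 4 in normal VEH, 18, 6 and 8 in normal HDM, 46, 64 and 85 in tumour VEH, and 114, 70 and 336 in tumour HDM, in counts. Its log2 change was 2.09 ± 0.95 (SE, edgeR adjusted p = 0.0999) under VEH and 3.77 ± 1.01 (SE, edgeR adjusted p = 0.0101) under HDM. Normal VEH replicate 2 stood out from its group, and without it the VEH change was 4.41 and passed the test, as it did with the prefix as a block (3.28); the HDM value was 4.44 without normal HDM replicate 1. Col27a1, a fibrillar chain of cartilage, ranged from 0.214 to 1.18 CPM per kb in normal lung and from 0.0196 to 0.188 in tumours, and fell, with log2 changes of -2.64 ± 0.85 (SE, edgeR adjusted p = 0.0314) and -2.80 ± 0.86 (SE, edgeR adjusted p = 0.0191). The VEH call held without normal VEH replicate 2 and without each HDM library, and was lost without each other VEH library (normal replicates 1 and 3, -2.14 and -2.63, and tumour replicates 1 to 3, -2.03, -2.84 and -3.03). The HDM call was lost without normal HDM replicate 3 (-1.71), tumour HDM replicate 2 (-2.47) or tumour HDM replicate 3 (-2.54). With the prefix as a block it was lost too (-1.53). Its opposite-strand neighbour Gm52743 had 19.6% of its counts. Col11a2 was not called in either comparison.

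Fibroblast markers also moved both ways: under VEH 4 of 10 rose and 3 fell, and under HDM 4 rose and 4 fell, by edgeR, where 38.9% and 51.9% of all genes were called. Those that rose were Dcn, Dpt, Fap and Lum under both treatments, and those that fell were Inmt, Pi16 and Tcf21 under both and Scara5 under HDM. Their summed level was 1577 to 3237 CPM in normal VEH and 1249 to 2618 in normal HDM, against 2933 to 4348 in tumour VEH and 4113 to 4944 in tumour HDM, and none of the 10 was at 0 in every library (Fap had 0 counts in normal HDM replicate 2 and Tcf21 in tumour HDM replicate 3). The summed level of 9 smooth muscle and pericyte markers went from 177 to 2032 and 529 to 2002 CPM in normal VEH and HDM to 127 to 160.2 and 50.6 to 157 in tumours. The part of either cell type in the fibrillar changes was not tested.

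**Figure D2:**
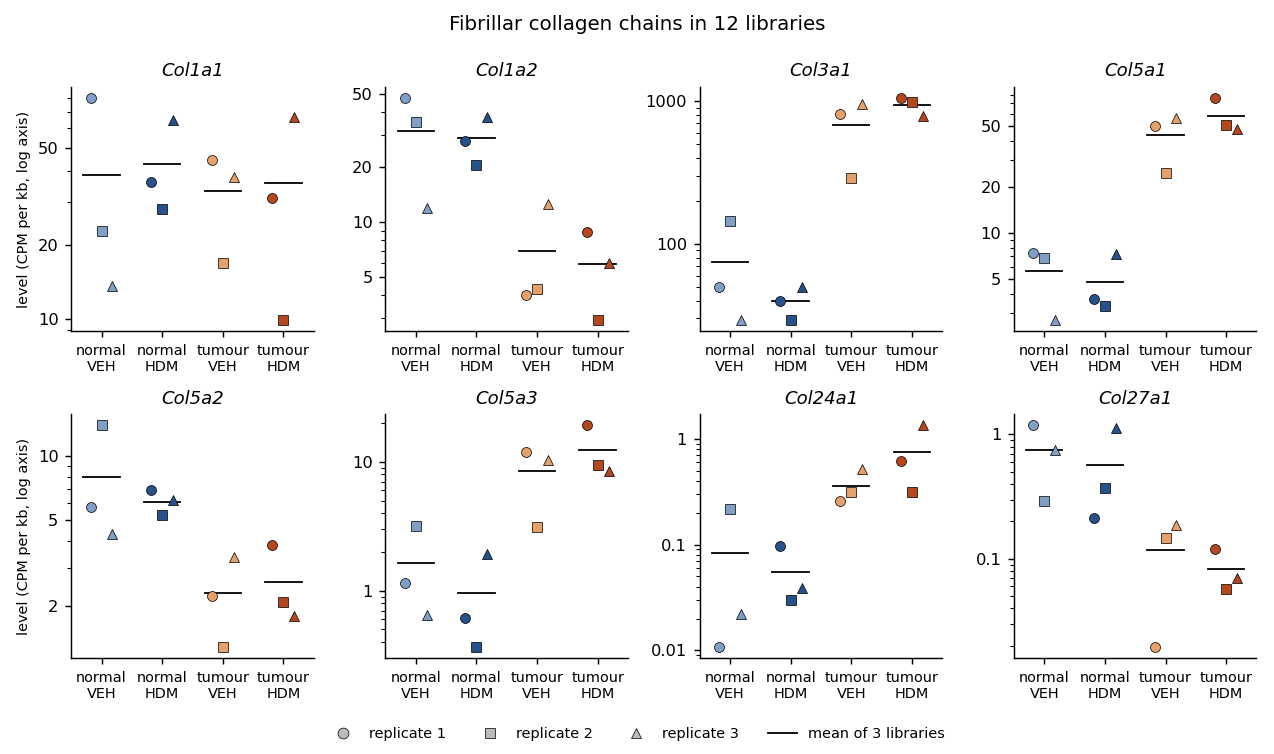
Level of 8 fibrillar collagen genes in each of the 12 libraries (CPM per kb, log axis); marker shapes are replicate numbers and lines are group means of 3 libraries. Col3a1, Col5a1 and Col24a1 have all 6 tumour libraries above all 6 normal ones, Col5a2 and Col27a1 below, and Col1a1 is mixed.

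All 6 type IV genes were tested. In tumours 5 fell under VEH and all 6 under HDM, beside 20.6% and 28.9% of all genes. The fall was steepest for the chains of restricted distribution, Col4a3 to Col4a6, with log2 changes from -2.86 to -3.25 under VEH and from -3.65 to -5.04 under HDM. For Col4a1 and Col4a2 they were -0.26 and -0.84 under VEH and -0.91 and -1.54 under HDM. The genes lie in head-to-head pairs: Col4a1 with Col4a2, Col4a4 with Col4a3 and Col4a6 with Col4a5. The first pair overlaps by 356 bases at the starts and the second by 159, while 1281 bases separate the third. Col4a1 and Col4a2 share 311 exon bases on opposite strands, and the lncRNA C430014B12Rik, opposite to Col4a3, had 30.0% of its counts, so unstranded counting could mix them. The upstream stretch of Col4a6, printed above, lies between it and Col4a5.

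Col4a1 (chr8:11248423-11362826, minus strand) had levels of 50.9, 59.5 and 53.5 in normal VEH, 86.6, 78.4 and 59.1 in normal HDM, 62.2, 36.5 and 38.1 in tumour VEH, and 56.2, 35 and 27.7 in tumour HDM, in CPM per kb. Tumour VEH replicate 1 exceeded all normal VEH libraries, and the HDM groups did not overlap. Log2 changes were -0.26 ± 0.28 (SE, edgeR adjusted p = 0.471) under VEH and -0.91 ± 0.28 (SE, edgeR adjusted p = 0.0196) under HDM. The HDM call was lost without normal HDM replicate 1 (-0.80), normal HDM replicate 2 (-0.88), tumour VEH replicate 3 (-0.79), tumour HDM replicate 2 (-0.71) or tumour HDM replicate 3 (-0.57).

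Its partner Col4a2 (chr8:11362471-11499287, plus strand) stood at 51.7, 67.6 and 53.7 in normal VEH, 100.3, 83.7 and 68.3 in normal HDM, 43, 24.5 and 29.5 in tumour VEH, and 38.3, 28 and 20.5 in tumour HDM, in CPM per kb. Tumours were below normals in both comparisons without overlap. The log2 changes were -0.84 ± 0.27 (SE, edgeR adjusted p = 0.0304) under VEH and -1.54 ± 0.27 (SE, edgeR adjusted p = 0.00114) under HDM. Under VEH it did not pass without any 1 of 6 libraries: normal VEH replicate 2 (-0.70), normal VEH replicate 3 (-0.88), normal HDM replicate 3 (-0.74), tumour VEH replicate 2 (-0.67), tumour VEH replicate 3 (-0.69) and tumour HDM replicate 2 (-0.74). With the library-name prefix as a block it was lost as well (-0.71).

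Col4a3 (chr1:82564642-82699780, plus strand) and Col4a4 (chr1:82426144-82564800, minus strand) encode chains that form 1 trimer with Col4a5. The levels of Col4a3 were 4.95, 11.3 and 14.9 in normal VEH, 12.1, 19.8 and 8.69 in normal HDM, 0.729, 2.64 and 0.917 in tumour VEH, and 0.948, 1.75 and 0.0274 in tumour HDM, in CPM per kb. Those of Col4a4 were 3.93, 9.44 and 8.31 in normal VEH, 7.74, 10.3 and 8.06 in normal HDM, 0.416, 1.75 and 0.591 in tumour VEH, and 0.878, 1.16 and 0.040 in tumour HDM, in CPM per kb. Both genes followed the same order: every tumour library lay below every normal library, tumour VEH replicate 2 was the highest tumour and tumour HDM replicate 3 the lowest, with 9 and 14 counts. For Col4a3 the log2 change was -2.86 ± 1.01 (SE, edgeR adjusted p = 0.0464) under VEH and -3.90 ± 1.06 (SE, edgeR adjusted p = 0.0114) under HDM, and for Col4a4 -2.97 ± 0.91 (SE, edgeR adjusted p = 0.0262) and -3.65 ± 0.94 (SE, edgeR adjusted p = 0.00842).

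With the library-name prefix as a block, the VEH calls of Col4a3 (-2.19, edgeR adjusted p = 0.149) and Col4a4 (-2.54, edgeR adjusted p = 0.0855) were lost. The VEH call of Col4a3 was close to the threshold. It was kept without tumour VEH replicate 2 (-3.65) and without tumour HDM replicate 3, and lost without each of the other 10 libraries in turn, at values from -2.44 to -3.19. Col4a4 lost its VEH call without normal VEH replicate 2 (-2.73), normal VEH replicate 3 (-2.86), tumour VEH replicate 1 (-2.53) or tumour VEH replicate 3 (-2.65), and was -3.84 without tumour VEH replicate 2. Both HDM calls held without each single library. The HDM changes were -3.18 for Col4a3 and -2.95 for Col4a4 without tumour HDM replicate 3, and -4.67 for Col4a3 without tumour HDM replicate 2.

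Col4a5 (chrX:140258354-140472231, plus strand), whose chain also forms a trimer with Col4a6 in smooth muscle and some epithelial basement membranes, had levels of 9.06, 9.75 and 21.1 in normal VEH, 8.38, 13.3 and 10.4 in normal HDM, 0.62, 2.56 and 0.989 in tumour VEH, and 0.807, 1.03 and 0.262 in tumour HDM, in CPM per kb. For Col4a6 (chrX:139948399-140257072, minus strand) they were 3.32, 2.1 and 3.36 in normal VEH, 1.57, 3.19 and 3.64 in normal HDM, 0.16, 0.611 and 0.249 in tumour VEH, and 0.0618, 0.0685 and 0.122 in tumour HDM, in CPM per kb. All 6 tumour libraries lay below all 6 normal ones for both genes. The log2 changes of Col4a5 were -3.25 ± 0.63 (SE, edgeR adjusted p = 0.00343) under VEH and -3.94 ± 0.65 (SE, edgeR adjusted p = 0.000908) under HDM, and those of Col4a6 -3.10 ± 0.52 (SE, edgeR adjusted p = 0.00169) and -5.04 ± 0.58 (SE, edgeR adjusted p = 0.000153). No single library ended these calls. Without tumour VEH replicate 2 the VEH changes were -4.04 and -3.84.

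Markers of several lung cell types moved with the type IV genes, those of endothelium and alveolar type 1 cells, which rest on basement membranes, among them. All 8 endothelial markers fell under both treatments, and their summed level was 1648 to 3482 CPM in normal VEH, 3047 to 3088 in normal HDM, 349.9 to 582 in tumour VEH and 106 to 329 in tumour HDM. Of 6 alveolar type 1 markers, 4 fell under VEH and 6 under HDM. Alveolar type 2 markers fell in 1 and 6 of 6, smooth muscle and pericyte markers in 4 and 8 of 9, airway epithelial markers in 0 and 4 of 6 and mesothelial markers in 5 and 3 of 6, under VEH and HDM in that order, and none of these markers rose. The background was 20.6% and 28.9% of all genes lower. No marker of these 6 lists was at 0 in all libraries. Tumour HDM replicate 3, lowest in Col4a3 and Col4a4, was also lowest in the endothelial, alveolar type 1, alveolar type 2 and airway epithelial sums. It was not lowest in the smooth muscle or mesothelial sums. Its alveolar type 2 and airway sums were 65.8 and 3.64 CPM, where the lowest of tumour VEH were 2291 and 450. The part of these cell types in the type IV changes was not tested.

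**Figure D3:**
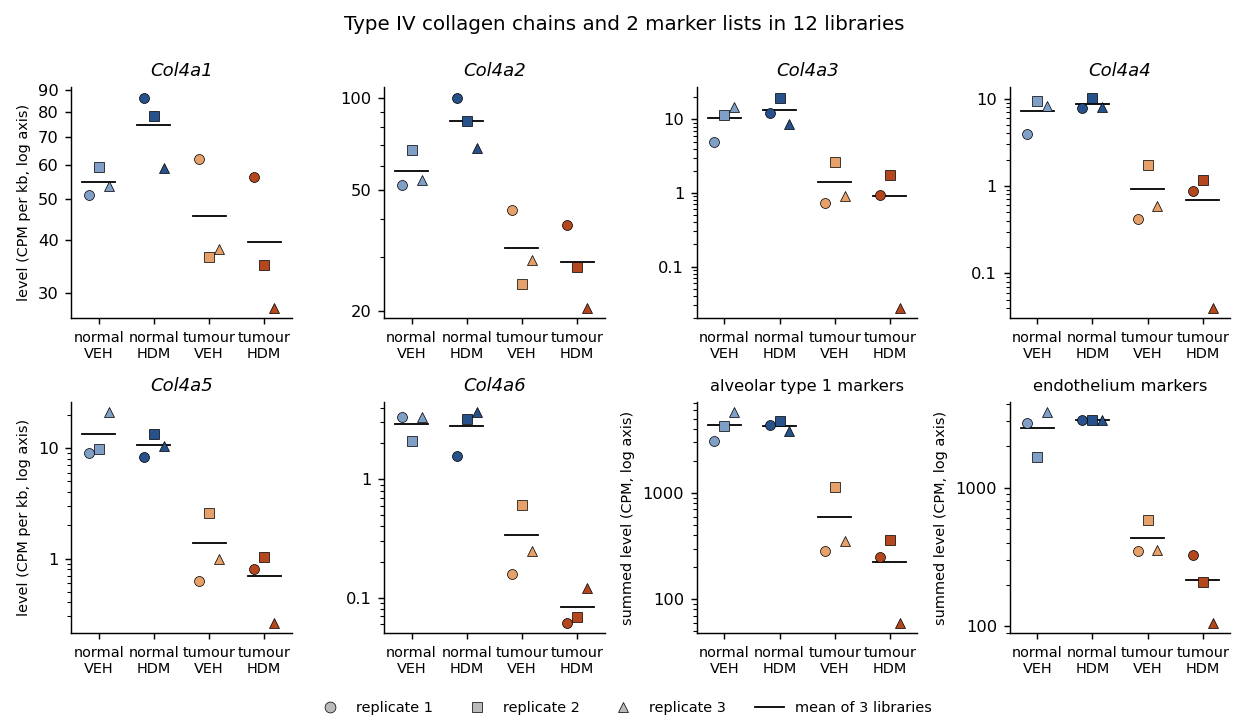
Level of the 6 type IV collagen genes (CPM per kb, log axis) and the summed level of 6 alveolar type 1 and 8 endothelial markers (CPM, log axis) in each library; shapes are replicate numbers and lines group means. Col4a2 to Col4a6 and both marker lists have all 6 tumour libraries below all 6 normal ones, and Col4a1 overlaps.

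Of the 5 FACIT genes tested, Col16a1 rose and Col14a1 fell under both treatments, Col20a1 fell under VEH, and Col9a3 and Col12a1 were not called. Over all genes, 18.2% rose and 20.6% fell under VEH, and 23.0% rose and 28.9% fell under HDM. Col16a1 (chr4:129941154-129993076, plus strand), a minor collagen at fibril surfaces and near basement membranes, had levels of 4.95, 7.98 and 2.93 in normal VEH, 3.89, 3.18 and 5.29 in normal HDM, 53.6, 39.5 and 66.4 in tumour VEH, and 50.1, 47.6 and 57.8 in tumour HDM, in CPM per kb. All tumours exceeded all normals several fold, by 3.33 ± 0.36 (SE, edgeR adjusted p = 0.000332) under VEH and 3.65 ± 0.36 (SE, edgeR adjusted p = 0.000101) under HDM on the log2 scale, and the call held under every alternative tried. Col14a1 (chr15:55171140-55384199, plus strand), which binds fibrils of type I collagen, stood at 9.52, 6.18 and 4.48 in normal VEH, 3.3, 4.21 and 6.09 in normal HDM, 2.7, 1.66 and 3.2 in tumour VEH, and 2.84, 2.12 and 1.63 in tumour HDM, in CPM per kb. Every tumour library lay below every normal one. The log2 change was -1.42 ± 0.36 (SE, edgeR adjusted p = 0.0107) under VEH and -1.05 ± 0.35 (SE, edgeR adjusted p = 0.028) under HDM. The HDM call was lost without normal HDM replicate 3 (-0.66), tumour VEH replicate 1 (-0.92), tumour VEH replicate 3 (-0.92), tumour HDM replicate 2 (-0.90) or tumour HDM replicate 3 (-0.73).

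Col20a1 (chr2:180628316-180660156, plus strand) was scarce, with 34, 25 and 17 in normal VEH, 11, 13 and 85 in normal HDM, 0, 4 and 0 in tumour VEH, and 20, 4 and 6 in tumour HDM, in counts. Its log2 change was -4.07 ± 1.30 (SE, edgeR adjusted p = 0.0303) under VEH, where 2 of the 3 tumour libraries had 0 counts, and -1.85 ± 1.08 (SE, edgeR adjusted p = 0.172) under HDM. This call was lost without normal VEH replicate 1 (-3.71), normal VEH replicate 3 (-4.24), tumour VEH replicate 1 (-3.45) or tumour VEH replicate 3 (-3.48) or with the prefix as a block (-4.96), and the fitted value was -7.67 without tumour VEH replicate 2. The interaction was not called (edgeR adjusted p = 0.649). An overlapping gene on the same strand, 9230112E08Rik, had 486% of the counts of Col20a1, so reads in their shared 91 exon bases could belong to either.

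In type VI collagen, whose chains form beaded filaments around cells, 2 of 5 tested genes rose under both treatments and none fell. Over all genes, 18.2% rose and 20.6% fell under VEH, and 23.0% rose and 28.9% fell under HDM. Col6a1 (chr10:76543440-76562283, minus strand) had levels of 41.3, 70.6 and 22.8 in normal VEH, 50, 47 and 46.5 in normal HDM, 138, 99 and 93.8 in tumour VEH, and 167, 105 and 57 in tumour HDM, in CPM per kb. Tumours lay above normals within each treatment. Its rise was 1.29 ± 0.42 (SE, edgeR adjusted p = 0.0338) under VEH and 1.20 ± 0.42 (SE, edgeR adjusted p = 0.0349) under HDM, the smallest of the rises that passed the test. The VEH call was lost without normal VEH replicate 1 (1.24), normal VEH replicate 3 (0.98), tumour VEH replicate 1 (1.20) or tumour VEH replicate 3 (1.48), and the HDM call without normal HDM replicate 1 (1.23), normal HDM replicate 2 (1.18), normal HDM replicate 3 (1.30), tumour HDM replicate 1 (0.88) or tumour HDM replicate 2 (1.35). With the prefix as a block the HDM call was lost too (0.77). Col6a2, its neighbour on chromosome 10, had log2 changes of 0.93 ± 0.39 (SE, edgeR adjusted p = 0.0769) and 0.76 ± 0.38 (SE, edgeR adjusted p = 0.122).

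Col6a3 (chr1:90693645-90771780, minus strand), the long chain whose end is released as endotrophin, measured 7.91, 4.35 and 3.91 in normal VEH, 4.88, 4.02 and 10.5 in normal HDM, 44.1, 11.7 and 75.3 in tumour VEH, and 63.7, 63.8 and 86 in tumour HDM, in CPM per kb. All tumours exceeded all normals, and tumour VEH replicate 2 was again the lowest tumour. The rise was 3.02 ± 0.62 (SE, edgeR adjusted p = 0.00462) under VEH and 3.46 ± 0.64 (SE, edgeR adjusted p = 0.00157) under HDM. Under HDM it was 4.10 without normal HDM replicate 3. The low members Col6a4 and Col6a5 had 0 to 6 and 0 to 26 counts in tumours and were not called.

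Col7a1 (chr9:108782647-108813943, plus strand), which forms the anchoring fibrils under stratified epithelium, had levels of 0.447, 0.48 and 0.205 in normal VEH, 0.219, 0.0807 and 0.523 in normal HDM, 4.5, 1.11 and 11.1 in tumour VEH, and 5.45, 2.17 and 0.887 in tumour HDM, in CPM per kb. All tumours lay above all normals, with a wide spread among them. The log2 change was 3.88 ± 0.98 (SE, edgeR adjusted p = 0.0121) under VEH and 3.37 ± 0.97 (SE, edgeR adjusted p = 0.0145) under HDM. It was 2.97 under VEH without tumour VEH replicate 3, and under HDM 4.35 without normal HDM replicate 3 and 2.60 without tumour HDM replicate 1. The HDM call was lost without normal HDM replicate 1 (3.23), and the VEH call with the prefix as a block (2.85).

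Col18a1 (chr10:76888012-77002390, minus strand), a basement membrane proteoglycan and the source of endostatin, stood at 7.5, 17.4 and 3.98 in normal VEH, 7.57, 6.49 and 9.97 in normal HDM, 119, 59.7 and 129.8 in tumour VEH, and 101, 123 and 92.1 in tumour HDM, in CPM per kb. Every tumour library exceeded every normal one. It rose by 3.42 ± 0.51 (SE, edgeR adjusted p = 0.00103) under VEH and 3.72 ± 0.52 (SE, edgeR adjusted p = 0.000369) under HDM, opposite in sign to the type IV genes that share its location. Without normal VEH replicate 2 the VEH change was 4.17. Col15a1, the related multiplexin, was not called (-0.14 and 0.19). Slc19a1 overlaps Col18a1 by 896 exon bases on the opposite strand and had 5.36% of its counts.

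The short-chain collagens Col8a1 and Col8a2 share type VIII networks in vessel walls and under corneal endothelium. Col8a1 (chr16:57444621-57575100, minus strand) had levels of 1.6, 1.42 and 1.0 in normal VEH, 2.56, 1.17 and 2.06 in normal HDM, 19, 8.33 and 15.7 in tumour VEH, and 17.3, 10.8 and 7.71 in tumour HDM, in CPM per kb. Those of Col8a2 (chr4:126180559-126208123, plus strand) were 15.9, 5.49 and 13 in normal VEH, 4.76, 15.4 and 9.94 in normal HDM, 0.284, 3.63 and 2.22 in tumour VEH, and 0.476, 0.35 and 0 in tumour HDM, in CPM per kb. The pair parted: all tumours were above all normals for Col8a1 and below them for Col8a2. Col8a1 rose by 3.41 ± 0.43 (SE, edgeR adjusted p = 0.000521) under VEH and 2.63 ± 0.41 (SE, edgeR adjusted p = 0.000647) under HDM. For Col8a2 the log2 changes were -2.48 ± 1.06 (SE, edgeR adjusted p = 0.0865) under VEH, which passed without tumour HDM replicate 3 (-2.37), and -5.21 ± 1.23 (SE, edgeR adjusted p = 0.00554) under HDM, which was -4.45 without that library. The interaction of Col8a2 was not called (edgeR adjusted p = 0.565).

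Among the 3 transmembrane collagens tested, none rose, where 18.2% of all genes rose under VEH and 23.0% under HDM. Col13a1 (chr10:61674015-61814940, minus strand), found at cell adhesions and the neuromuscular junction, had levels of 7.72, 1.39 and 4.56 in normal VEH, 5.33, 6.09 and 8.57 in normal HDM, 0.163, 0.699 and 0.374 in tumour VEH, and 0.246, 0.175 and 0.013 in tumour HDM, in CPM per kb. Tumours lay below normals in every case. It fell, with log2 changes of -3.46 ± 0.87 (SE, edgeR adjusted p = 0.0113) under VEH and -5.54 ± 0.96 (SE, edgeR adjusted p = 0.00117) under HDM. The VEH call was lost without tumour VEH replicate 3 (-3.29) or with the prefix as a block (-3.59), and the VEH value was -2.84 without normal VEH replicate 1 and -4.08 without tumour VEH replicate 2. The HDM value was -4.84 without tumour HDM replicate 3.

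Col23a1 (chr11:51180566-51474745, plus strand), an epithelial transmembrane collagen, measured 14.6, 9.96 and 14.4 in normal VEH, 10.4, 13.2 and 15.8 in normal HDM, 2.73, 8.16 and 2.4 in tumour VEH, and 6.53, 14.4 and 4.75 in tumour HDM, in CPM per kb. Tumours lay below normals under VEH, and the HDM groups overlapped through tumour HDM replicate 2. The log2 change was -1.55 ± 0.51 (SE, edgeR adjusted p = 0.0354) under VEH and -0.62 ± 0.50 (SE, edgeR adjusted p = 0.321) under HDM, and the interaction was not called (edgeR adjusted p = 0.661). The VEH call was lost without any 1 of 7 libraries, at values from -1.55 (normal HDM replicate 2) to -1.16 (tumour VEH replicate 3). The others were normal VEH replicates 1 and 3 (-1.46 and -1.47), normal HDM replicate 3 (-1.45), tumour VEH replicate 1 (-1.20) and tumour HDM replicate 1 (-1.45). It was -2.34 without tumour VEH replicate 2. Col17a1 of hemidesmosomes, and Col26a1 and Col28a1, were not called.

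Levels per kb of the deposited gene length gave the order of the genes within a group, and the order depends on the length used. Per kb of coding sequence, Col1a2 lay above Col1a1 in every normal library. In normal HDM, Col4a2 (84.1 ± 16.0, SD, n = 3) and Col4a1 (74.7 ± 14.1) were highest, followed by Col6a1 (47.8 ± 1.90), Col1a1 (43.0 ± 19.2) and Col3a1 (39.6 ± 10.1). In normal VEH the means were 74.5 ± 61.2 for Col3a1, 57.7 ± 8.65 for Col4a2, 54.7 ± 4.39 for Col4a1, 44.9 ± 24.1 for Col6a1 and 38.7 ± 35.8 for Col1a1. Neighbours in these orders lay within each other's spread, except that Col4a1 in normal HDM lay above Col6a1 in every library, and Col3a1 was first in normal VEH through replicate 2 alone. In tumours Col3a1 stood apart, at 686 ± 348 under VEH and 942 ± 134 under HDM. It was followed by Col6a1 (110.2 ± 24.0 and 109.7 ± 54.9) and Col18a1 (103 ± 37.8 and 105.3 ± 16.0), which lay within each other's spread.

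The summed level of the 44 genes was 306 to 534 CPM per kb in normal libraries and 675 to 1755 in tumours. The Col3a1 part of that sum was 10.9%, 27% and 9.59% in normal VEH, 8.92%, 7.0% and 10.5% in normal HDM, 55.4%, 43.2% and 60.4% in tumour VEH, and 59.7%, 64.4% and 60.7% in tumour HDM. Every tumour library had a larger Col3a1 share than every normal library, and normal VEH replicate 2 had the largest of the normals. Per kb of coding sequence in place of gene length, its range was 8.82% to 32% in normal libraries and 50.8% to 71.8% in tumours.

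The part of type IV genes was 27.1%, 29.9% and 50.6% in normal VEH, 48.6%, 49.6% and 33.4% in normal HDM, 7.29%, 10.1% and 4.47% in tumour VEH, and 5.54%, 4.37% and 3.73% in tumour HDM. Their share was lower in every tumour library than in any normal library. Fibrillar genes together made 20.7% to 42.5% in normal libraries and 50.7% to 70.9% in tumours, FACIT genes 1.9% to 3.5% and 3.16% to 6.24%, and the other types 23.6% to 28.1% and 20.8% to 32.9%. Within the fibrillar share, Col1a2 went from 3.93% to 10.4% in normal libraries to 0.191% to 0.796% in tumours. A share falls when another gene rises, so these values carry no test.

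**Figure D4:**
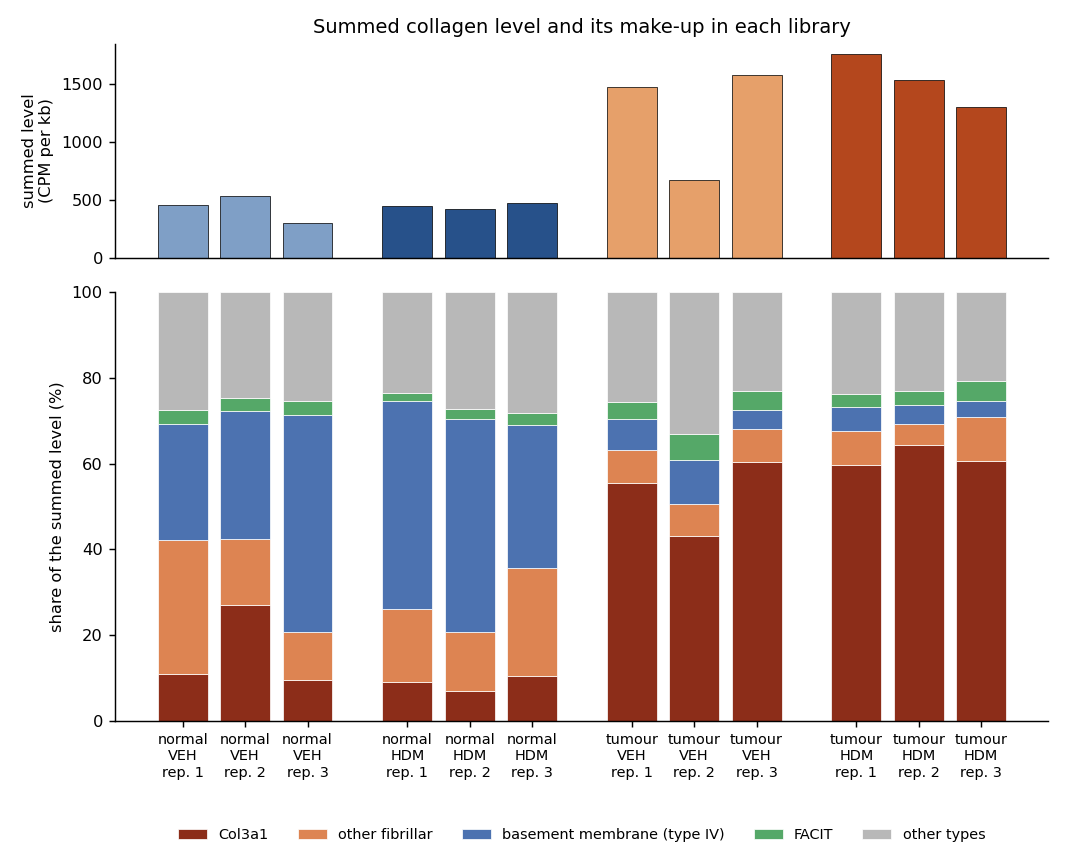
Summed level of the 44 collagen genes (top, CPM per kb) and the share of that sum from Col3a1, other fibrillar, type IV, FACIT and other genes (bottom, %) in each of the 12 libraries. Col3a1 makes 43.2% to 64.4% of the sum in tumours and 7.0% to 27.0% in normal lung.

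Ratios between chains need no scaling between libraries, since both counts come from the same library. The 12 ratios were tested over all 12 libraries by an exact permutation test, two-sided, with tissue labels exchanged within treatment and Benjamini-Hochberg adjustment over the 12. The smallest p it can give is 0.005. The ratio of Col1a1 to Col1a2 per kb was 1.68, 0.651 and 1.13 in normal VEH, 1.3, 1.37 and 1.72 in normal HDM, 11.1, 3.92 and 3.03 in tumour VEH, and 3.5, 3.36 and 11.1 in tumour HDM. All 6 tumour libraries lay above all 6 normal ones. The tumour ratio was 4.07-fold higher (2.03 log2, exact permutation p = 0.005, adjusted p = 0.01). Per kb of coding sequence, its mean log2 value was -0.75 in normal and 1.28 in tumour libraries, in place of 0.32 and 2.34. The difference between tissues does not depend on the length used.

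Col3a1 to Col1a1 was 0.629, 6.31 and 2.16 in normal VEH, 1.1, 1.05 and 0.767 in normal HDM, 18.2, 17.2 and 25 in tumour VEH, and 33.7, 99.97 and 11.9 in tumour HDM. Tumours were higher throughout, by 4.22 log2 (exact permutation p = 0.005, adjusted p = 0.01). The highest value, in tumour HDM replicate 2, belongs to the library with the lowest Col1a1 level. For Col5a1 to Col5a2, chains of the main type V trimer, the ratio was 1.28, 0.493 and 0.623 in normal VEH, 0.538, 0.628 and 1.17 in normal HDM, 22.4, 19 and 16.6 in tumour VEH, and 19.6, 24.2 and 26.5 in tumour HDM. The groups were far apart relative to their spread, with a difference of 4.85 log2 (exact permutation p = 0.005, adjusted p = 0.01).

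Col4a1 to Col4a2, which pair in the common type IV trimer, varied least, at 0.985, 0.88 and 0.997 in normal VEH, 0.864, 0.937 and 0.865 in normal HDM, 1.45, 1.49 and 1.29 in tumour VEH, and 1.47, 1.25 and 1.35 in tumour HDM. The tumour libraries still all lay above the normal ones, by 0.59 log2 or 1.5-fold (exact permutation p = 0.005, adjusted p = 0.01). Within the restricted trimers no difference passed the test. Col4a3 to Col4a4 was 1.08 to 1.92 in normal libraries and 0.698 to 1.75 in tumours (-0.15 log2, exact permutation p = 0.555, adjusted p = 0.605). Col4a5 to Col4a6 was 2.73 to 6.27 in normal libraries and 2.14 to 14.6 in tumours (0.38 log2, exact permutation p = 0.43, adjusted p = 0.516). Between the networks the difference was large. Col4a3 to Col4a1 was lower in tumours, with a difference of -3.42 log2 (exact permutation p = 0.005, adjusted p = 0.01), and so was Col4a5 to Col4a1, with -3.13 log2 (exact permutation p = 0.005, adjusted p = 0.01).

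In type VI, Col6a3 to Col6a1 was 0.192, 0.0616 and 0.171 in normal VEH, 0.0975, 0.0856 and 0.226 in normal HDM, 0.32, 0.118 and 0.803 in tumour VEH, and 0.382, 0.605 and 1.51 in tumour HDM. Its difference of 1.91 log2 (exact permutation p = 0.015, adjusted p = 0.0257) did not pass without normal VEH replicate 2 (1.65), normal VEH replicate 3 (2.02), tumour VEH replicate 1 (1.90), tumour VEH replicate 3 (1.56) or tumour HDM replicate 3 (1.63). The VEH groups overlapped through tumour VEH replicate 2. Col6a1 to Col6a2 differed by 0.43 log2 (exact permutation p = 0.055, adjusted p = 0.0825), and passed without normal VEH replicate 2 (0.58) or normal HDM replicate 1 (0.52). The FACIT ratios Col12a1 to Col1a1 (-0.41 log2, exact permutation p = 0.61, adjusted p = 0.61) and Col14a1 to Col1a1 (-0.97 log2, exact permutation p = 0.105, adjusted p = 0.14) did not pass with all libraries. Col14a1 to Col1a1 passed without tumour HDM replicate 2 (-1.34).

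**Figure D5:**
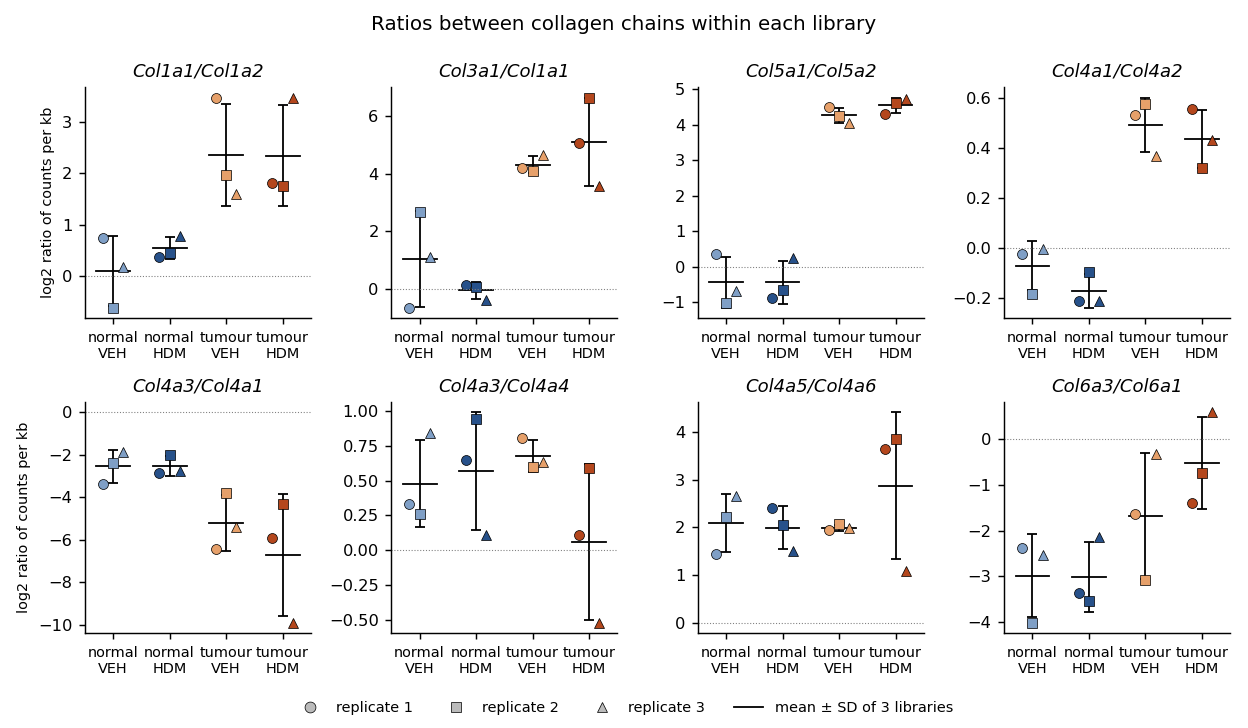
Log2 ratio of counts per kb between pairs of collagen genes in each library, with the group mean and SD of 3 libraries; shapes are replicate numbers. In Col1a1/Col1a2, Col3a1/Col1a1, Col5a1/Col5a2 and Col4a1/Col4a2 all 6 tumour libraries lie above all 6 normal ones, in Col4a3/Col4a1 below, and Col4a3/Col4a4 and Col4a5/Col4a6 overlap.

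Genes that make and handle collagen were read beside the chains, from 6 lists, with the 4 called genes of largest change in either treatment named in each. Each value given as a rise or fall is a log2 change with an edgeR adjusted p below 0.05. Beside the counts below, 18.2% of all genes rose and 20.6% fell under VEH, and 23.0% rose and 28.9% fell under HDM. Of 19 genes for folding and modification in the endoplasmic reticulum, 13 rose and 3 fell under VEH, and 11 rose and 5 fell under HDM. The lysyl hydroxylase Plod2 rose by 1.63 under VEH and 2.99 under HDM, and the prolyl isomerase Fkbp10 by 1.74 and 2.56. Colgalt2, a collagen galactosyltransferase, fell (-2.98 and -5.47), and so did the ion channel gene Tmem38b (-1.95 and -2.41). Colgalt2 had 22, 44 and 26 counts in tumour VEH and 6, 12 and 2 in tumour HDM. Of 5 secretion genes, 3 rose and 1 fell under each treatment. The coat protein genes Sec23a and Sec24d rose (1.44 and 0.81 under VEH, 1.74 and 1.16 under HDM), as did the export receptor Mia3 (0.62 and 0.96), and the transcription factor Creb3l1 fell (-2.14 and -2.97).

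Among 7 tested genes of propeptide processing, 3 rose and 3 fell under VEH, and 3 rose and 4 fell under HDM. Bmp1, which removes the C-propeptide, rose by 2.42 and 3.10, while its relative Tll1 fell (-3.62 and -2.04). Of the N-proteinases, Adamts14 rose by 2.74 and 5.79, and Adamts3 had -1.84 under VEH, which did not pass, and fell under HDM (-3.39). Adamts3 was scarce, at 2, 6 and 2 counts in tumour VEH and 0, 0 and 6 in tumour HDM. The 5 lysyl oxidases, which crosslink fibrils, divided as well, with 2 higher and 2 lower under VEH and 3 higher and 2 lower under HDM. Loxl3 and Loxl4 rose (2.53 and 1.66 under VEH, 2.93 and 1.81 under HDM), and Lox and Loxl1 fell (-1.92 and -1.95, -1.98 and -2.55).

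Of 5 genes of basement membrane assembly, 3 rose and 1 fell under each treatment, by edgeR. Nid1 and Hspg2, which link the type IV and laminin networks, rose by 2.40 and 2.31 under VEH and 3.15 and 3.19 under HDM, and Pxdn, which crosslinks type IV collagen, by 1.20 and 1.64. These 3 moved opposite to the called type IV chains. Sparc, a collagen chaperone outside cells, fell (-0.79 and -1.23). Of 10 receptors, 3 rose and 4 fell under VEH, and 4 rose and 5 fell under HDM. The platelet receptor Gp6 fell (-4.50 and -4.54), to 2, 6 and 2 counts in tumour VEH and 0, 8 and 0 in tumour HDM. The integrin chains Itga1 and Itga11 fell (-1.61 and -2.22 under VEH, -3.34 and -3.57 under HDM). Itga11 had 4, 10 and 8 counts in tumour VEH and 7, 4 and 2 in tumour HDM. Itga10, an integrin chain of cartilage, had 1.05 under VEH, which did not pass, and rose by 2.94 under HDM.

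The treatment comparison asked how HDM and VEH differed within each tissue. No collagen gene was called in normal lung or in tumours by edgeR's quasi-likelihood test, and none in the interaction, which asks whether the tumour to normal difference depended on treatment. Over all genes 0% were called in normal lung, 0.0946% in tumours and 0% in the interaction. Without the libraries of conflicting prefixes, 0 of 36 collagen genes and 0% of all genes were called in each of these comparisons. At an unadjusted p below 0.05 there were 0 collagen genes in normal lung, 2 in tumours and 1 in the interaction, of 35, beside 1230, 3698 and 2084 of all 22190 genes. The DESeq2 Wald test called 0, 1 and 0 collagen genes, and 0.172%, 6.02% and 0.989% of all genes.

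The smallest unadjusted p-values in normal lung belonged to Col4a2, Col14a1 and Col3a1. Col4a2 was the only tested collagen gene whose HDM libraries lay apart from the VEH libraries there (0.54 log2, edgeR adjusted p = 0.887), where 10.3% of all genes did so. Col14a1 differed by -0.57 and Col3a1 by -0.91 log2 (edgeR adjusted p = 0.908 and 0.908). In tumours the smallest p-values were those of Col4a6 (unadjusted 0.00306), Col8a2 and Col20a1. Col4a6 was 0.16, 0.611 and 0.249 CPM per kb in tumour VEH and 0.0618, 0.0685 and 0.122 in tumour HDM. These levels rest on 30, 131 and 43 counts and on 12, 16 and 32 counts. Tumour VEH replicate 3 and tumour HDM replicate 2 are among the libraries of conflicting prefixes. Col4a6 was the only tested collagen gene without overlap between the tumour groups, against 22.0% of all genes, at a log2 difference of -2.00 ± 0.53 (SE, edgeR adjusted p = 0.165). By the DESeq2 Wald test the Col4a6 difference was -2.05 and passed, in a test that called 6.02% of all genes between the tumour groups.

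Col8a2 differed by -2.91 and Col20a1 by 2.71 log2 between tumour HDM and tumour VEH (edgeR adjusted p = 0.249 and 0.322). In the interaction the 3 smallest p-values were those of Col4a6 (-1.94 log2, edgeR adjusted p = 0.505), Col4a2 (-0.70, 0.559) and Col8a2 (-2.73, 0.565). The summed endothelial markers were lower in all 3 tumour HDM libraries than in all 3 tumour VEH libraries, with the ranges given above, while the alveolar type 1 and smooth muscle sums overlapped. Their part in the Col4a6 values was not tested. The larger tumour to normal changes under HDM than under VEH for Col3a1 and the type IV genes were therefore not shown to differ between treatments.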

How the data were processed

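RNA-seq was measured in 12 libraries of 3 per group. Per the labels' protocols, dissected pieces were snap-frozen, RNA integrity numbers were above 6 and libraries were stranded; every sample carries the same batch label. The deposited values are raw counts per gene, which the authors made with Trim Galore, STAR and featureCounts of Subread on mm39, per the submitters' processing notes; versions, strand setting and whether mates were counted singly are not given in the sources used here. Between 68.2% and 72.0% of counts from 1 to 20 were even in each library. No count was altered, and 78168 of 78298 identifiers matched GENCODE M39 on GRCm39, which gave names and coordinates; promoter windows are RefSeq's, built on GRCm38.p6.

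Genes passing edgeR's expression filter (minimum count 10) were fitted over all 4 groups with TMM scaling and the robust quasi-likelihood test (edgeR 4.0.16, R 4.3.3), p-values adjusted by Benjamini-Hochberg over 22190 genes in each of 5 comparisons; DESeq2 1.42.0 was an alternative. The standard error of a log2 change is its size over the root of F. Levels are CPM after TMM per kb of the deposited gene length. Chain ratios used counts plus 0.5. The scripts were tested on simulated data. Replicates of a group differed far beyond counting noise. Members and lists were chosen with earlier results of these data known. Values by library are given for Col1a1, Col1a2, Col3a1, the type IV genes and the 4 genes of largest called change in each type. For treatment they are given for the 3 genes of smallest p. Col5a2 and Col27a1 were added after their values were seen, with ranges in the text. Pathway lists name up to 4 called genes each. Alternatives were other scalings, filters and tests, the compared groups alone, blocks by replicate number or name prefix, and fewer libraries. Deviations of same-numbered tumour and normal libraries correlated weakly or negatively, which cannot decide whether they are paired.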

Additional observations from a re-analysis of the deposited data

How the results depend on the processing

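Of 50 tumour against normal results for single genes, 19 kept their outcome, called or not, and their direction in each alternative. For each result 21 or 22 alternatives were run. Among the 19 is Col23a1 under HDM, which was not called. Counts of called genes without 1 library each ranged from 12 to 25 under VEH and from 17 to 23 under HDM, with 24.7% to 39.2% and 42.5% to 51.0% of all genes called, and without the libraries of conflicting prefixes they were 11 and 13. Without the low-count filter, 14 of 43 and 19 of 43 genes were called by edgeR, 16.8% and 25% of all genes. VEH calls lost there included Col1a2 (-2.13), Col4a3 (-2.78), Col4a4 (-2.90), Col23a1 (-1.47) and Col27a1 (-2.57). Scaling by library totals only ended, among others, the VEH calls of Col4a2 (-0.71) and Col4a3 (-2.74) and the HDM call of Col14a1 (-0.88). Fitting the compared groups alone ended, among others, the VEH calls of Col23a1 (-1.51) and Col27a1 (-2.61). The DESeq2 Wald test called 1 collagen gene, Col4a6, and 6.02% of all genes between the tumour groups. Direction turned for Col1a1 under VEH (-0.62 to 0.87 without 1 library each) and under HDM (-0.93 to 0.29 without 1 library each, 0.14 with the prefix as a block, 0.69 without the libraries of conflicting prefixes), and without those libraries for Col4a1 under VEH (0.020) and Col20a1 under HDM (0.19). None of these passed the test. With 8 libraries the ratio test cannot go below 0.0556, so the ratios lost their call by construction. With 6 prefixes as blocks it cannot go below 0.0312 before adjustment; the adjusted p was 0.0938 for Col6a3/Col6a1 and 0.0536 for the 6 other called ratios. Their values were 2.24 and 2.03 for Col1a1/Col1a2, 4.07 and 4.22 for Col3a1/Col1a1, 4.91 and 4.85 for Col5a1/Col5a2, 0.61 and 0.59 for Col4a1/Col4a2, -3.99 and -3.42 for Col4a3/Col4a1, -3.38 and -3.13 for Col4a5/Col4a1 and 1.58 and 1.91 for Col6a3/Col6a1. Without 1 library each, Col6a1/Col6a2 ranged from 0.32 to 0.58, Col6a3/Col6a1 from 1.56 to 2.26, Col12a1/Col1a1 from -0.84 to 0.12 and Col14a1/Col1a1 from -1.34 to -0.55; the cause of these shifts was not tested. With the replicate number as a block 20 genes were called under VEH and 21 under HDM, with 35.3% and 49.6% of all genes. Of the genes given values, Col5a3 (2.14), Col20a1 (-3.92) and Col27a1 (-2.67) lost their VEH call and Col5a2 (-1.28) its HDM call. The correlations of same-numbered deviations were -0.22, -0.30 and -0.02 under VEH and -0.10, 0.16 and 0.16 under HDM. Tumour and normal libraries joined by name prefix gave -0.22 to 0.18. These correlations therefore cannot decide whether the numbers pair the libraries. With the name prefix as a block, 17 and 21 genes were called, with 26.1% and 38.9% of all genes. The changes included a VEH call gained by Col24a1 (3.28). VEH calls were lost for Col4a2 (-0.71), Col4a3 (-2.19), Col4a4 (-2.54), Col5a3 (2.24), Col7a1 (2.85), Col13a1 (-3.59) and Col20a1 (-4.96). HDM calls were lost for Col6a1 (0.77) and Col27a1 (-1.53). Other genes that gained a call with this block are not listed. Depth limits statements on the 9 genes not tested, and on Col6a4, Col6a5, Col9a3 and Col20a1, whose tumour counts were 26 or fewer. It also limits those on Col26a1, with tumour counts of 30 or fewer. Among the pathway genes, depth limits those on Gp6, Itga11 and Adamts3, with tumour counts of 10 or fewer.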
